A study of Homo sapiens with 60 samples.

Results

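Saengmaek-san is a traditional East Asian formula of ginseng root, the tuber of Liriope or Ophiopogon and Schisandra fruit. An ethanol extract of it was tested here on SW1783, a human astrocytoma cell line, and the comparison described is its high dose (500 µg/mL, n = 3 libraries) against its low dose (20 µg/mL, n = 3 libraries) after 24 h. The libraries were chosen by their labelled formula, extraction and dose, and are 6 of the 60 in the series. The medium dose of the same extract (100 µg/mL, n = 3) and vehicle (n = 3) serve as context, together with the 9 libraries of Guibi-tang, another formula of the series. Extracts were made with 70% ethanol, the cells were grown in L-15 medium, in which galactose takes the place of glucose, and gene expression was read by directional messenger RNA sequencing. The vehicle was DMSO, given as 0.1% in the sample records and as 2% in the series text. The labels do not say whether replicates were separate cultures, so p-values measure the spread between these libraries, which may be technical. All results come from 1 cell line.

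Astrocytoma cells carry much of the metabolic and stress wiring of astrocytes. TXNIP, the strongest responder here, encodes thioredoxin-interacting protein, an arrestin-fold protein that binds thioredoxin and removes glucose transporters from the cell surface. Its gene and that of its relative ARRDC4 are classical targets of the sugar-sensing transcription factor MondoA and its partner MLX, which bind E-box-like motifs, often in pairs. Other arms of the stress response are run by NRF2 (oxidants and electrophiles), AhR (aromatic xenobiotics) and ATF4 (amino acid shortage and misfolded protein), whereas SRF and YAP keep the contractile actin programme on.

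The Saengmaek-san libraries held 24506161 to 37686975 expected counts and the vehicle libraries 25186538 to 26477753. Replicate 1 carried more short-transcript counts at every dose than replicates 2 and 3: its slope of log2 expression against log2 transcript length, relative to vehicle, was -0.107 at the high dose, -0.145 at the medium dose and -0.114 at the low dose, against -0.0175 to -0.0884 in the other 6 libraries. The fit of the 3 doses takes the replicate number as a block. The astrocytoma label was checked on marker genes. VIM, CD44 and CHI3L1 were abundant, whereas GFAP, S100B, SOX2 and AQP4, which mark mature astrocytes and glial progenitors, were at 0.238 CPM or less in every high, low and vehicle library. Markers of oligodendrocytes (MOG) and T cells (CD3E) were at 0 in all 9 of these libraries. Other members of the same marker lists were present, with MBP at 5.01 to 9.5 CPM, PTPRC at 2.41 to 10.8 CPM and CD68 at 147 to 189 CPM. The epithelial marker KRT18 (78.2 to 175 CPM) and the endothelial marker KDR (28.2 to 46.9 CPM) were present too.

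Of 16601 genes tested between the high and the low dose with edgeR's quasi-likelihood F-test, 2855 (17.2%) were called at a Benjamini-Hochberg adjusted p under 0.05, 1346 higher (8.11%) and 1509 lower (9.09%). Most changes were small, with a median absolute log2 fold change of 0.40 among the called genes, and 200 genes changed at least 2-fold (83 higher and 117 lower). Protein-coding genes made up 2519 of the called genes. The number of calls depended on how replicate differences were handled: 983 genes were called without the replicate block, 982 of them among the 2855, and 55 when replicate 1 was left out of all doses. Without replicate 3 the count was 1261, and without replicate 2 it was 5183. Counts without the block and without replicate 1 are therefore given beside that of each gene list below, in the same order of directions. The shares of all tested genes, 8.11% higher and 9.09% lower, are the background for every list count. The high-dose and low-dose libraries did not overlap in 5066 of all tested genes (30.5%).

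**Figure D1:**
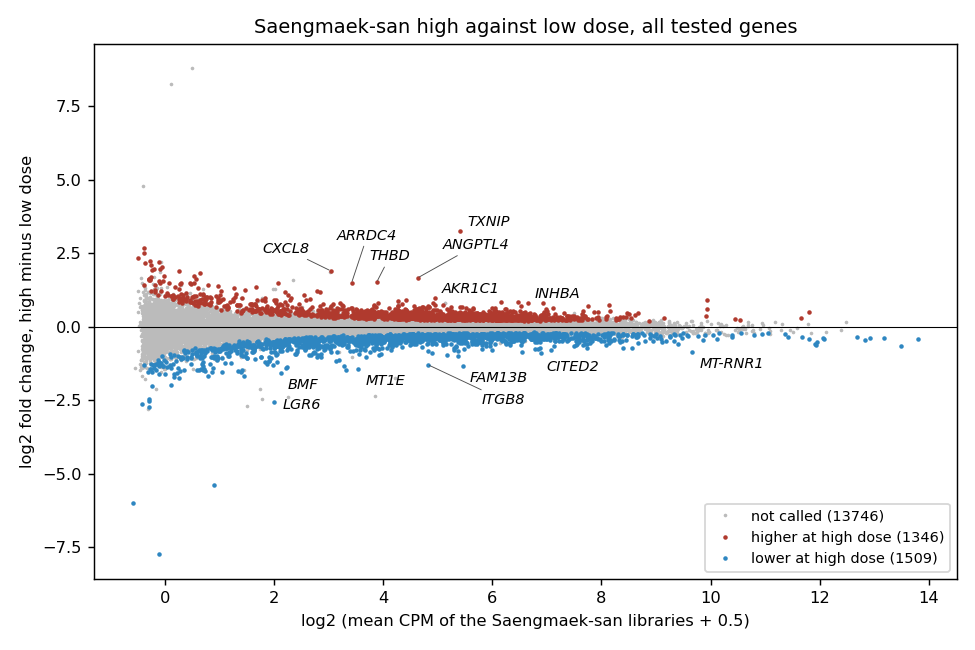
Log2 fold change of the high minus the low dose against mean expression (log2 scale) for the 16601 tested genes. Red and blue points are the 1346 genes called higher and the 1509 called lower, and TXNIP stands alone among the genes of middle and high expression at 3.24.

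TXNIP was the gene most changed among those whose log2 CPM averaged 2 or more. It stood at 99.5, 102 and 106 CPM in the high-dose libraries, against 10.3, 10.5 and 11.6 CPM in the low-dose libraries. The groups lie far apart and their libraries vary little. The change was 9.46-fold, a log2 fold change of 3.24 ± 0.078 (SE, adjusted p = 1.2e-10). The medium dose held 12.8 ± 1.32 CPM and vehicle 10.1 ± 0.617 CPM (mean ± SD, n = 3 each, as for all means below), close to the low dose, so nearly all of the rise fell in the last 5-fold step of dose. TXNIP lies at chr1:145992435-145996600 on GRCh38 (GENCODE release 29).

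ARRDC4, a relative of TXNIP and also an inhibitor of glucose uptake, moved with it. Its level was 16.2, 19.3 and 18.1 CPM at the high dose, against 5.08, 6.71 and 7.4 CPM at the low dose. No high-dose library overlapped a low-dose one, and the log2 fold change was 1.49 ± 0.10 (SE, adjusted p = 9.51e-06). At the medium dose ARRDC4 held 6.26 ± 1.2 CPM and in vehicle 5.65 ± 0.177 CPM. Of the 5 genes in the list of TXNIP and arrestins, these 2 were called, also without the block and without replicate 1, and the other 3 were not.

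The promoters of these 2 genes are shown because both genes are known MondoA targets and both windows hold E-box-like letters. Each window holds 250 bases before and 50 bases after the most upstream RefSeq start (GRCh38.p14), 5′ to 3′ on the strand of the gene. TXNIP is read from chr1:145996530-145996829 on the minus strand, and ARRDC4 from chr15:97960453-97960752 on the plus strand. Capitals mark every match to CACGNG on either strand.
TXNIP: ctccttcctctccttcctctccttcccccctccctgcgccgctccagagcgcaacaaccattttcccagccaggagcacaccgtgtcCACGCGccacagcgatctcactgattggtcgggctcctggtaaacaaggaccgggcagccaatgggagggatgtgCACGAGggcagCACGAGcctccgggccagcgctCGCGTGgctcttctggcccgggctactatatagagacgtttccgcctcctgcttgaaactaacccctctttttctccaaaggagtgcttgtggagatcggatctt
ARRDC4: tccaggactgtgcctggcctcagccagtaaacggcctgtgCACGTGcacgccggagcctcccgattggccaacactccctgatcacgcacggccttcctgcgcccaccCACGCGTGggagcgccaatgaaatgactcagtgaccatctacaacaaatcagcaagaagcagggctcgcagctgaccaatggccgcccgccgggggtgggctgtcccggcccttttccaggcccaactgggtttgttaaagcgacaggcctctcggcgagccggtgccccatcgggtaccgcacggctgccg
The TXNIP window holds 4 matches and the ARRDC4 window 3, of which 2 overlap each other. In TXNIP a pair of CACGNG matches is separated by 5 bases, beginning 88 bases before the start, an arrangement present on either strand in 20 of the 35116 promoters of the table and absent from this ARRDC4 window. The palindrome CACGTG is found once in ARRDC4 and not in this TXNIP window. Single matches are common, since CACGNG occurs in 30.5% of all promoters and CACGTG in 7.26%. A CCAAT box on either strand, present in 34.6% of promoters, occurs 2 times in TXNIP and 3 times in ARRDC4. These letters describe the windows and do not show that a factor was bound in these cells.

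**Figure D2:**
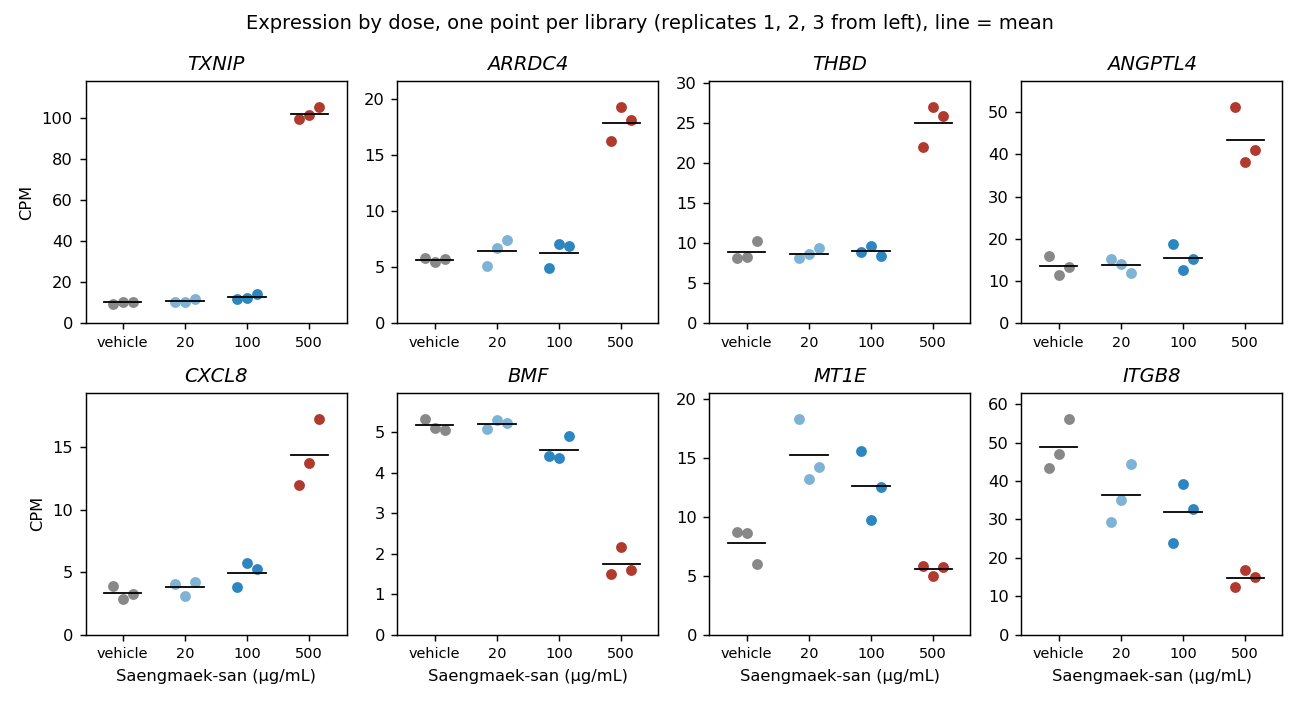
Expression in CPM by dose of Saengmaek-san, with vehicle at the left, 1 point per library and the mean as a line. At 500 µg/mL TXNIP reached 99.5 CPM or more in each library, and for each of the 8 genes, which were picked among the largest called changes, the high-dose libraries lie apart from those of both lower doses.

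CXCL8, the neutrophil-attracting chemokine interleukin-8, held 12.0, 13.7 and 17.3 CPM at the high dose, against 4.07, 3.08 and 4.24 CPM at the low dose. Its lowest high-dose library was well above its highest low-dose one, and the log2 fold change was 1.90 ± 0.15 (SE, adjusted p = 2.56e-05). ANGPTL4, a secreted inhibitor of lipoprotein lipase and a PPAR target, stood at 51.2, 38.2 and 40.9 CPM, against 15.2, 14.1 and 11.9 CPM, a log2 fold change of 1.66 ± 0.097 (SE, adjusted p = 3.46e-06). THBD, thrombomodulin, the thrombin receptor that turns thrombin towards activating protein C, stood at 22.0, 27.0 and 25.9 CPM, against 8.07, 8.61 and 9.39 CPM at the low dose. The groups of both genes are fully separated, and THBD changed by 1.52 ± 0.093 (SE, adjusted p = 4.02e-06) on the log2 scale. In vehicle THBD held 8.93 ± 1.2 CPM and ANGPTL4 13.6 ± 2.21 CPM, near their low-dose values.

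AKR1C1, an aldo-keto reductase that inactivates progesterone and is a classical NRF2 target, held 46.9, 41.4 and 45.4 CPM at the high dose, against 23.8, 22.5 and 22.0 CPM at the low dose. The libraries are tightly grouped at both doses, and the log2 fold change was 0.97 ± 0.072 (SE, adjusted p = 1.48e-05). AKR1C1 has near-identical relatives among which the read assignment is uncertain. NPTX1, a neuronal pentraxin, rose by 1.20 ± 0.16 (SE, adjusted p = 0.000892), and the background potassium channel gene KCNK3 by 1.20 ± 0.15 (SE, adjusted p = 0.000382). The inward rectifier gene KCNJ14 was the most scattered of the rises, with 10.1, 5.36 and 8.12 CPM at the high dose, against 3.63, 4.59 and 3.01 CPM at the low dose, and a log2 fold change of 1.07 ± 0.22 (SE, adjusted p = 0.0127). The remaining rises were the hair keratin-associated gene KRTAP2-3 (1.17 ± 0.13 (SE, adjusted p = 0.000252)), FAHD2B (1.08 ± 0.13 (SE, adjusted p = 0.000308)), which has a close copy in FAHD2A, and the kinase-like RSKR (0.96 ± 0.14 (SE, adjusted p = 0.000996)), all as log2 fold changes.

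LGR6, a receptor for R-spondins, which augment Wnt signalling, fell further than any of the falls named by the rule on mean level. It was just under that rule's minimum and was picked out after its values were seen. LGR6 stood at 0.91, 0.771 and 0.915 CPM at the high dose, against 5.01, 4.8 and 5.44 CPM at the low dose. All 3 high-dose libraries were below 1.00 CPM, and the log2 fold change was -2.55 ± 0.17 (SE, adjusted p = 7.32e-06). In the medium dose it held 4.47 ± 0.86 CPM and in vehicle 6.56 ± 1.26 CPM.

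BMF, a BH3-only protein that promotes cell death, held 1.5, 2.17 and 1.59 CPM at the high dose, against 5.08, 5.31 and 5.23 CPM at the low dose. The 2 groups are clearly apart, and BMF changed by -1.57 ± 0.15 (SE, adjusted p = 7.87e-05) on the log2 scale. The chloride channel family gene CLIC3 stood at 5.06, 4.21 and 4.13 CPM, against 14.6, 12.0 and 10.9 CPM, a log2 fold change of -1.48 ± 0.12 (SE, adjusted p = 1.95e-05). HTR2A, the serotonin 2A receptor, held 1.34, 2.35 and 2.69 CPM at the high dose, against 5.39, 5.34 and 5.99 CPM at the low dose, and changed by -1.41 ± 0.17 (SE, adjusted p = 0.000333). Every high-dose library of HTR2A was below every low-dose one, as for CLIC3. MAP2, a microtubule-associated protein known from neuronal dendrites, held 2.21, 2.84 and 1.42 CPM, against 5.55, 4.98 and 5.73 CPM, and changed by -1.37 ± 0.21 (SE, adjusted p = 0.00216).

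MT1E, a zinc- and copper-binding metallothionein, was at 5.82, 5.01 and 5.79 CPM at the high dose, against 18.4, 13.2 and 14.2 CPM at the low dose. Its groups do not overlap, and the log2 fold change was -1.45 ± 0.10 (SE, adjusted p = 1.09e-05). MT1E differed from most falling genes in its starting point, since vehicle held 7.78 ± 1.54 CPM and the low dose was called above vehicle, with a log2 fold change of 0.97 ± 0.19 (SE, adjusted p = 0.00966). ANKRD1, a YAP target and ankyrin-repeat protein of stretched muscle, had the same order of levels, with 9.42, 6.87 and 6.52 CPM at the high dose, against 18.04, 14.4 and 13.6 CPM at the low dose and 8.96 ± 0.878 CPM in vehicle. Its log2 fold change between the doses was -1.02 ± 0.13 (SE, adjusted p = 0.000442), and that of the low dose over vehicle 0.78 ± 0.15 (SE, adjusted p = 0.00914). High-dose means, 5.54 CPM for MT1E and 7.6 CPM for ANKRD1, lay below the vehicle means. The medium-dose means, 12.6 and 14.0 CPM, lay above them, as did the low dose. Vehicle carries another library-name set, so extract and set cannot be told apart in values against it.

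ITGB8, the integrin chain that pairs with the alpha-v chain to release active TGF-beta, held 12.4, 16.9 and 15.1 CPM at the high dose, against 29.3, 35.1 and 44.5 CPM at the low dose. Its groups are separated although the low dose is spread, and the log2 fold change was -1.29 ± 0.11 (SE, adjusted p = 5.55e-05). FAM13B, a gene with a GTPase-activating domain, held 21.6, 26.0 and 21.7 CPM, against 50.8, 58.2 and 64.2 CPM, and changed by -1.32 ± 0.092 (SE, adjusted p = 9.51e-06). BMP4, a bone morphogenetic protein that steers glial fate, stood at 4.95, 4.31 and 4.96 CPM at the high dose, against 12.1, 12.2 and 11.7 CPM at the low dose. This is a tight separation, with a log2 fold change of -1.34 ± 0.11 (SE, adjusted p = 2.56e-05). The guanine nucleotide exchange factor VAV3 changed by -1.15 ± 0.11 (SE, adjusted p = 8.6e-05), the noncoding RNA LINC01963 by -1.16 ± 0.10 (SE, adjusted p = 4.03e-05), and GDAP1, a protein of the mitochondrial outer membrane, by -1.04 ± 0.11 (SE, adjusted p = 0.000201).

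Across the 12 largest rises and 12 largest falls, 20 kept their call in all 20 alternative fits of the high against the low dose. The exceptions were KCNK3, KCNJ14, RSKR and MAP2. At the medium dose none of the 24 was called against the low dose: medium minus low log2 fold changes ran from -0.03 to 0.39 among the rises (median 0.14) and from -0.28 to -0.08 among the falls (median -0.17). In all, 0 genes were called between the medium and the low dose with edgeR (0.0% of those tested), 338 had an unadjusted p under 0.05, and DESeq2 called 2. As a share of the 16601 tested genes, 338 is below that threshold of 0.05, so it is not read as a weak signal. Both comparisons share the low-dose libraries. Without replicate 2, 1053 genes were called between the medium and the low dose, and without low-dose replicate 2, 674 were. In the latter fit 3261 had an unadjusted p under 0.05.

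**Figure D3:**
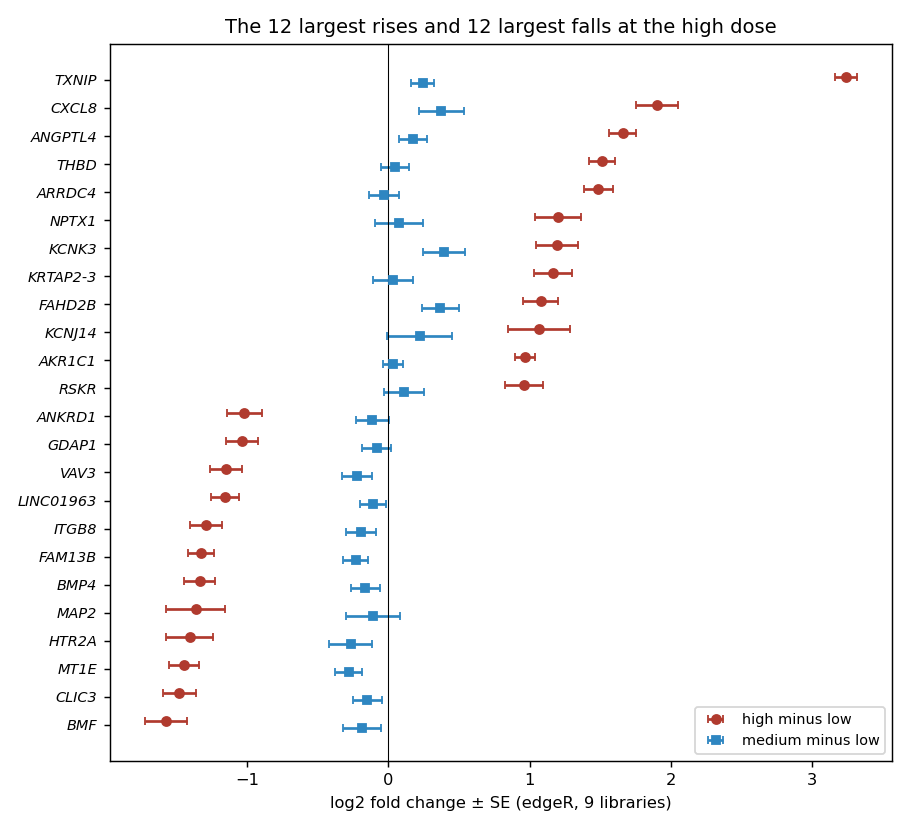
Log2 fold change ± SE against the low dose for the 24 genes with the largest rises and falls, high dose as red circles and medium dose as blue squares. The medium dose stays between -0.28 and 0.39, whereas the high dose reaches -1.57 and 3.24.

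Antioxidant genes were called mostly in the higher direction. Of 28 tested NRF2 targets, 14 were called higher and 1 lower, with a median log2 fold change of 0.25, where the median of all tested genes was 0.002. Without the block 6 were called higher and 0 lower, and without replicate 1 the counts were 1 and 0 with a median of 0.21. The leading members were AKR1C1, the pseudogene NMRAL2P (0.89 ± 0.14 (SE, adjusted p = 0.00189)) and SLC7A11, the cystine importer that feeds glutathione synthesis. SLC7A11 stood at 132, 200.2 and 155 CPM at the high dose, against 86.5, 108 and 128 CPM at the low dose, groups that differ by a small margin, with a log2 fold change of 0.58 ± 0.10 (SE, adjusted p = 0.00395). HMOX1, haem oxygenase, changed by 0.34 ± 0.070 (SE, adjusted p = 0.00732). The member that fell was EPHX1, a microsomal epoxide hydrolase, at -0.35.

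Of 6 tested AhR targets 5 were called higher, with a median of 0.36, and 0 lower. Without the block 2 were called, and without replicate 1 0 were, with a median of 0.35. ALDH3A1, an aldehyde dehydrogenase, stood at 2.41, 2.49 and 2.45 CPM at the high dose, against 0.883, 1.15 and 0.784 CPM at the low dose, and CYP1A1, the prototype AhR-induced oxidase, at 1.94, 2.35 and 2.01 CPM, against 1.58, 0.861 and 0.915 CPM. Both were low in counts yet separated between doses, with log2 fold changes of 1.40 ± 0.22 (SE, adjusted p = 0.00166) for ALDH3A1 and 0.92 ± 0.23 (SE, adjusted p = 0.0184) for CYP1A1. TIPARP, the AhR-induced repressor of the receptor, changed by 0.40 ± 0.079 (SE, adjusted p = 0.00584), and the other called members were CYP1B1 and NQO1. Of 10 tested PXR targets and transporters, 1 was called, GSTP1, which fell (-0.32 ± 0.093 (SE, adjusted p = 0.0372)), and 0 were without the block or without replicate 1. That share, 10.0%, is near the 9.09% lower among all tested genes.

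Of 30 ATF4 targets of the amino acid response 15 were called higher and 1 lower, with a median of 0.27. Without the block the counts were 9 and 0, and without replicate 1 they were 0 and 0 with a median of 0.23. ASNS, asparagine synthetase, held 98.8, 90.5 and 94.9 CPM at the high dose, against 66.8, 65.7 and 56.5 CPM at the low dose. Its groups do not overlap, and the log2 fold change was 0.59 ± 0.073 (SE, adjusted p = 0.000412). TRIB3, a pseudokinase that damps the response, changed by 0.73 ± 0.084 (SE, adjusted p = 0.000272), and the peptide hormone gene ADM2 by 0.91 ± 0.12 (SE, adjusted p = 0.000812), whereas the transcription factor gene ATF5 fell (-0.36 ± 0.090 (SE, adjusted p = 0.0177)). Among 20 aminoacyl-tRNA synthetases 5 rose and 0 fell (1 and 0 without the block, 0 and 0 without replicate 1), among them LARS1 (0.33 ± 0.070 (SE, adjusted p = 0.0089)), CARS1 and MARS1, and also AARS1 and YARS1.

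Of 20 tested endoplasmic reticulum chaperones, 5 were called higher and 1 lower (2 and 0 without the block, 0 and 0 without replicate 1). HSPA5, the chaperone BiP, changed by 0.30 ± 0.074 (SE, adjusted p = 0.0164) and DNAJB9 by 0.47 ± 0.076 (SE, adjusted p = 0.00209), EDEM1, which directs misfolded glycoproteins to degradation, by 0.40 ± 0.077 (SE, adjusted p = 0.00501), and HSP90B1 and DNAJC3 were also called. DNAJB11 fell by 0.23 on the log2 scale. Of 20 heat shock chaperones 3 rose (HSP90AA1, DNAJB4 and HSPD1) and 2 fell (0 and 1 without the block, 0 and 0 without replicate 1). These shares, 15.0% and 10.0%, compare with 8.11% and 9.09% of all tested genes. The small heat shock protein HSPB1, which binds actin filaments, led the falls with 255, 219.9 and 231 CPM at the high dose, against 468, 356 and 361 CPM at the low dose. The separation is wide, with a log2 fold change of -0.74 ± 0.088 (SE, adjusted p = 0.000336), and HSPA8 changed by -0.22 ± 0.069 (SE, adjusted p = 0.0449). The 29 tested proteasome genes held 0 calls with edgeR, also without the block and without replicate 1, and 1 with DESeq2, and their median was 0.006. Without replicate 2, 10 of them were called higher and 3 lower.

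**Figure D4:**
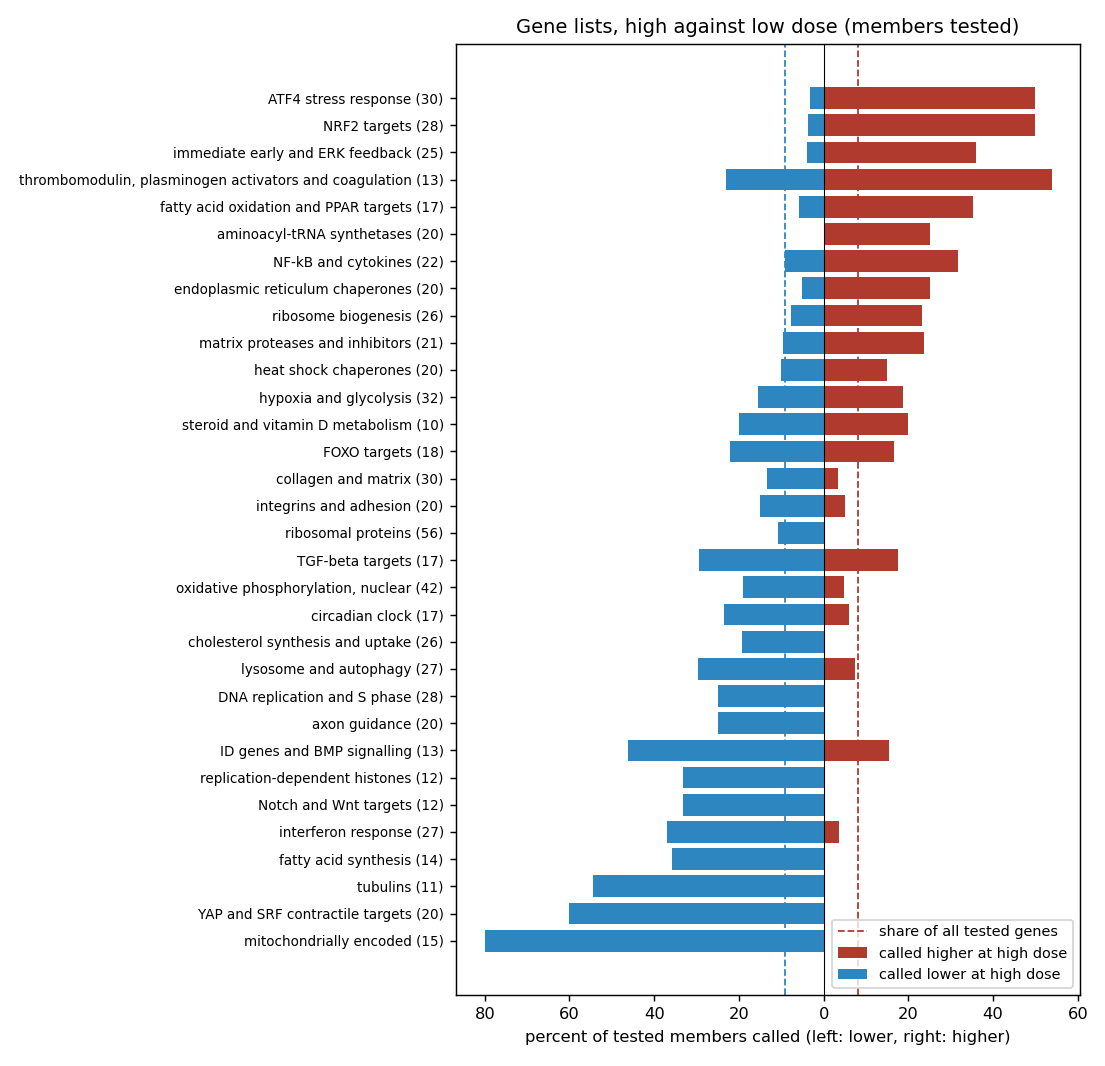
Percent of tested members called higher (red, to the right) or lower (blue, to the left) at the high dose for the 32 lists with at least 10 tested members and 4 calls, with the number tested in brackets. Dashed lines mark 8.11% and 9.09%, the shares of all tested genes, and the mitochondrially encoded, YAP and SRF, and tubulin lists lie far to the left.

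Inflammatory cytokines and growth factor feedback genes rose in part. Of 22 NF-kB and cytokine genes 7 were called higher and 2 lower, with a median of 0.25 (5 and 2 without the block, 2 and 0 without replicate 1). IL1B, interleukin-1 beta, held 8.23, 8.87 and 8.06 CPM at the high dose, against 5.14, 4.45 and 3.61 CPM at the low dose. Its groups are separated, and the log2 fold change was 0.94 ± 0.12 (SE, adjusted p = 0.000661). The chemokine CXCL5 changed by 1.49 ± 0.23 (SE, adjusted p = 0.00162) from below 1 CPM at the low dose. In contrast CCL2, a monocyte chemokine, held 9.77, 7.92 and 7.94 CPM at the high dose, against 14.8, 14.7 and 14.0 CPM at the low dose, a log2 fold change of -0.77 ± 0.11 (SE, adjusted p = 0.0011), and TNFAIP2 fell as well (-0.40 ± 0.076 (SE, adjusted p = 0.00487)).

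Among 25 immediate early and ERK feedback genes, 9 rose and 1 fell, with a median of 0.19 (4 and 0 without the block, 1 and 0 without replicate 1). PHLDA1, a pleckstrin-domain protein induced by growth factors, held 367, 374 and 401 CPM at the high dose, against 217, 229.8 and 242 CPM at the low dose. No overlap was seen, and the log2 fold change was 0.73 ± 0.063 (SE, adjusted p = 3.82e-05). DUSP6, the phosphatase that switches ERK off, changed by 0.67 ± 0.073 (SE, adjusted p = 0.000211), and the EGF-family ligand EREG by 0.76 ± 0.22 (SE, adjusted p = 0.0347). JUNB fell (-0.35 ± 0.086 (SE, adjusted p = 0.017)).

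Genes of thrombin handling and plasminogen activation were often called. Of 13 tested, 7 rose and 3 fell, with a median of 0.23 (4 and 2 without the block, 1 and 0 without replicate 1). These shares, 53.8% higher and 23.1% lower, compare with 8.11% and 9.09% of all tested genes. Beside THBD, PLAU, the urokinase gene, changed by 0.46 ± 0.067 (SE, adjusted p = 0.00114). PLAU stood at 129.8, 118 and 121 CPM at the high dose, against 88.2, 92.1 and 87.0 CPM at the low dose, without overlap. The falls were the thrombin receptor F2R (-0.24), its relative F2RL1 (-0.46) and ANXA2, which docks plasminogen at the surface (-0.36), as log2 fold changes.

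Calls among contractile genes were all in the lower direction. Of 20 tested YAP and SRF targets 12 were called lower and 0 higher, with a median of -0.27. The counts were 6 and 0 without the block and 2 and 0 without replicate 1, where the median was again -0.27. ACTA2, smooth muscle actin, held 80.7, 73.1 and 73.1 CPM at the high dose, against 136, 129 and 118 CPM at the low dose. These groups are well apart, with a log2 fold change of -0.76 ± 0.074 (SE, adjusted p = 9.07e-05). MYL9, the regulatory light chain of non-muscle myosin, stood at 218, 191 and 187 CPM, against 366, 286 and 278 CPM, a log2 fold change of -0.63 ± 0.078 (SE, adjusted p = 0.000406). In vehicle ACTA2 held 99.1 ± 3.19 CPM, below the low dose (log2 fold change of low over vehicle 0.36 ± 0.081 (SE, adjusted p = 0.0161)), so its high-dose level was under vehicle by less than under the low dose. ACTB, the cytoplasmic actin and 1 of the 5 called genes with the highest CPM, changed by -0.40 ± 0.075 (SE, adjusted p = 0.00479).

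Tubulin genes showed the same direction. Of 11 tested, 6 were called lower and 0 higher, with a median of -0.23 (1 and 0 without the block, 0 and 0 without replicate 1, median -0.24). TUBA1A stood at 267, 230.5 and 257 CPM at the high dose, against 386, 358 and 343 CPM at the low dose. Its groups are separated, and the log2 fold change was -0.53 ± 0.075 (SE, adjusted p = 0.000996). TUBA4A changed by -0.41 ± 0.086 (SE, adjusted p = 0.00756) and TUBB3, a neuronal isotype, by -0.28 ± 0.073 (SE, adjusted p = 0.0227). Tubulin genes have close copies among which the assignment of reads is uncertain.

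Of 30 collagen and matrix genes 4 fell (DCN, COL3A1, COL5A1 and POSTN) and 1 rose, the collagen cross-linker LOX (0.25 ± 0.077 (SE, adjusted p = 0.0438)). The 4 falls are 13.3% of the list, against 9.09% of all tested genes, and the counts were 1 and 0 without the block, 0 and 0 without replicate 1, 17 and 0 without replicate 2 and 14 and 2 with the length slope added beside the block. DCN, the proteoglycan decorin, led with 7.6, 7.19 and 7.64 CPM at the high dose, against 11.2, 12.2 and 11.2 CPM at the low dose, a log2 fold change of -0.63 ± 0.099 (SE, adjusted p = 0.00185). Of 21 genes in the list of matrix proteases and inhibitors 5 rose (MMP14, PLAU, HAS2 and MMP1 among them) and 2 fell (4 and 1 without the block, 0 and 0 without replicate 1, 5 and 6 without replicate 2). HAS2, counted among these rises, makes hyaluronan and is neither a protease nor an inhibitor. MMP14, the membrane-bound collagenase, held 1241, 1275 and 1213 CPM at the high dose, against 857, 822 and 807 CPM at the low dose. That separation is wide relative to the spread, with a log2 fold change of 0.58 ± 0.068 (SE, adjusted p = 0.000298). MMP2, which MMP14 activates, changed in the other direction (-0.37 ± 0.072 (SE, adjusted p = 0.00559)), as did the inhibitor TIMP1 (-0.28 ± 0.086 (SE, adjusted p = 0.0437)). Of 20 integrins and adhesion genes ITGB8, CDH11 and L1CAM fell and ITGB3 rose (0.62 ± 0.16 (SE, adjusted p = 0.0281)), with counts of 3 and 0 without the block, 1 and 0 without replicate 1 and 9 and 2 without replicate 2. Their shares, 15.0% lower and 5.0% higher, compare with 9.09% and 8.11% of all tested genes. Among 20 axon guidance genes 5 fell and 0 rose, namely SLIT2, SLIT3, SEMA3A, EPHB2 and EFNB2, with EPHB2 at -0.48 ± 0.073 (SE, adjusted p = 0.00152). There 2 fell without the block, 0 without replicate 1, 15 without replicate 2 (median -0.42 in place of -0.23) and 11 with the length slope and the block.

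Of 13 ID and BMP genes 6 fell and 2 rose, with a median of -0.38 (4 and 0 without the block, 1 and 0 without replicate 1, median -0.37). ID2, an inhibitor of DNA binding induced by BMPs, held 18.5, 18.5 and 19.1 CPM at the high dose, against 30.6, 29.6 and 29.6 CPM at the low dose. ID2 was steady within each group and changed by -0.68 ± 0.082 (SE, adjusted p = 0.000369). ID4 changed by -0.62 ± 0.19 (SE, adjusted p = 0.0407), whereas GREM1, a secreted BMP antagonist, rose (0.46 ± 0.079 (SE, adjusted p = 0.00301)), as did SMAD9 (0.44 ± 0.13 (SE, adjusted p = 0.0369)). SMAD9 lost its call in 13 of 20 alternative fits and ID4 in 12. Of 17 TGF-beta targets 3 rose (INHBA and TGFBR1 among them) and 5 fell, CCN2 (-0.45 ± 0.062 (SE, adjusted p = 0.000882)), BAMBI, JUNB, PMEPA1 and LTBP3 (2 and 3 without the block, 1 and 0 without replicate 1, 3 and 10 without replicate 2). These shares, 17.6% higher and 29.4% lower, compare with 8.11% and 9.09% of all tested genes. INHBA, the activin A subunit, held 145, 130.2 and 138 CPM at the high dose, against 77.5, 76.2 and 82.8 CPM at the low dose, well apart, with a log2 fold change of 0.81 ± 0.068 (SE, adjusted p = 3.42e-05).

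Of 12 Notch and Wnt targets 4 fell and 0 rose (3 and 0 without the block, 1 and 0 without replicate 1). DKK1, a secreted Wnt antagonist, held 281, 262 and 263 CPM at the high dose, against 459.6, 448 and 432 CPM at the low dose. The groups are far apart for their spread, and the log2 fold change was -0.73 ± 0.068 (SE, adjusted p = 6.05e-05). The low dose of DKK1 was above vehicle, with a log2 fold change of 0.47 ± 0.066 (SE, adjusted p = 0.00367). The Wnt-responsive genes TCF7 (-0.76 ± 0.083 (SE, adjusted p = 0.000211)), NKD1 (-1.36 ± 0.41 (SE, adjusted p = 0.0403)) and AXIN2 were the other falls. Among 11 glial identity genes 3 fell and 0 rose: SOX9 (-0.54 ± 0.076 (SE, adjusted p = 0.000911)), the glutamate transporter SLC1A3 (-0.60 ± 0.12 (SE, adjusted p = 0.00609)) and PDGFRB (-0.39 ± 0.075 (SE, adjusted p = 0.00501)) (3 without the block, 0 without replicate 1).

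Interferon-stimulated genes were called mostly in the lower direction. Of 27 tested, 10 fell and 1 rose, with a median of -0.37 (6 and 0 without the block, 0 and 0 without replicate 1, median -0.29). IFIT1, an RNA-binding antiviral protein, held 8.47, 7.78 and 7.88 CPM at the high dose, against 14.0, 12.3 and 10.9 CPM at the low dose. Its groups do not overlap, and the log2 fold change was -0.62 ± 0.097 (SE, adjusted p = 0.00179). XAF1 changed by -0.71 ± 0.11 (SE, adjusted p = 0.00182) and HERC6 by -0.78 ± 0.13 (SE, adjusted p = 0.00256), whereas the helicase DDX60 rose (0.42 ± 0.11 (SE, adjusted p = 0.02)). Of 13 genes of MHC class I presentation 1 was called, the peptide transporter TAP1, which rose (0.30 ± 0.074 (SE, adjusted p = 0.0161)), and 0 were without the block or without replicate 1. That share, 7.7%, is near the 8.11% higher among all tested genes.

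Calls among genes of lipid synthesis and uptake were all in the lower direction in the fit with the replicate block alone. Of 26 cholesterol synthesis and uptake genes 5 fell and 0 rose, with a median of -0.13 (3 and 0 without the block, 0 and 0 without replicate 1). The falls are 19.2% of the list, against 9.09% lower among all tested genes. Without replicate 2 the counts were 7 and 2 with a median of -0.06, and with the length slope and the block 7 and 1. LSS, lanosterol synthase, held 48.7, 49.5 and 48.0 CPM at the high dose, against 61.1, 66.2 and 62.1 CPM at the low dose. Its groups do not overlap, with a log2 fold change of -0.37 ± 0.072 (SE, adjusted p = 0.00502), and HMGCS1 and INSIG1 were also called. Of 14 fatty acid synthesis genes 5 fell and 0 rose, led by ACACB (-0.58 ± 0.14 (SE, adjusted p = 0.0162)), SREBF1 (-0.52 ± 0.076 (SE, adjusted p = 0.00118)) and FADS2, with SCD and INSIG1 (2 and 0 without the block, 0 and 0 without replicate 1). Of 11 LXR targets the 3 falls were SREBF1, SCD and SMPDL3A, and 0 rose (2 and 0 without the block, 0 and 0 without replicate 1). The falls in the fatty acid synthesis and LXR lists are 35.7% and 27.3% of their members.

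Fatty acid oxidation genes and PPAR targets were called mostly in the higher direction. Of 17 tested, 6 rose and 1 fell (3 and 1 without the block, 2 and 0 without replicate 1). Beside ANGPTL4, PDK4, a kinase that inhibits pyruvate dehydrogenase, stood at 1.74, 1.68 and 1.71 CPM at the high dose, against 0.662, 0.502 and 0.915 CPM at the low dose. It was low in counts but separated, with a log2 fold change of 1.3 ± 0.25 (SE, adjusted p = 0.00474). The member that fell was PPARGC1A, a coactivator of mitochondrial biogenesis, at 0.356, 0.701 and 0.502 CPM, against 1.39, 1.18 and 1.78 CPM, a log2 fold change of -1.49 ± 0.27 (SE, adjusted p = 0.00377).

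Of 15 tested mitochondrially encoded transcripts, 12 were called lower and 0 higher, with a median of -0.41. Without the block 2 were called lower, and without replicate 1 0 were, with a median of -0.44. MT-RNR1, the small ribosomal RNA of the mitochondrion, held 632, 529 and 528 CPM at the high dose, against 1160.0, 939 and 951 CPM at the low dose. These are clearly separated, with a log2 fold change of -0.85 ± 0.081 (SE, adjusted p = 7.87e-05). MT-RNR2 changed by -0.67 ± 0.084 (SE, adjusted p = 0.000434), MT-ND1 by -0.61 ± 0.17 (SE, adjusted p = 0.0394), MT-CO2 by -0.47 ± 0.13 (SE, adjusted p = 0.0406), MT-CO1 by -0.41 ± 0.11 (SE, adjusted p = 0.0219) and MT-ND4 by -0.39 ± 0.11 (SE, adjusted p = 0.0336). All mitochondrially encoded genes together, tested or not, took 5.85 ± 0.50% of the counts at the high dose, against 7.82 ± 0.55% at the low dose (SD, n = 3 each). The difference could not reach p = 0.05 in an exact two-sided permutation test of 3 against 3 libraries, whose smallest p is 0.1, the value obtained. The share was 7.5 ± 1.2% at the medium dose and 10.2 ± 0.11% in vehicle. Medium-dose replicate 2 (6.22%) and low-dose Guibi-tang replicate 2 (5.82%) lay within the high-dose range of 5.42 to 6.40%.

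Of 42 nuclear genes of oxidative phosphorylation 8 were called lower and 2 higher (SDHA and NDUFS1), and 0 and 0 both without the block and without replicate 1. Without replicate 2 the direction of the list turned, with 8 lower, 11 higher and a median of 0.045 in place of -0.079, and with the length slope added beside the block 9 were lower and 5 higher, with a median of 0.003. ATP5PF changed by -0.42 ± 0.098 (SE, adjusted p = 0.014), COX6B1 by -0.39 ± 0.11 (SE, adjusted p = 0.0399) and NDUFB10 by -0.35 ± 0.077 (SE, adjusted p = 0.0104), whereas SDHA, the flavoprotein of complex II, rose (0.28 ± 0.070 (SE, adjusted p = 0.0171)), as did NDUFS1 (0.24 ± 0.070 (SE, adjusted p = 0.0325)). In the 56 ribosomal protein genes 6 were lower and 0 higher, and the 10.7% lower is near the 9.09% of all tested genes. The counts were 0 and 0 without the block and without replicate 1, 13 and 0 with DESeq2, and 14 and 8 without replicate 2, with RPS28 at -0.43 ± 0.10 (SE, adjusted p = 0.0155). RPS28 stood at 223, 163 and 161 CPM at the high dose, against 278, 238 and 216 CPM at the low dose. The groups overlap, and replicate 1 was the highest of its group at both doses. With the length slope added beside the block, 11 were lower and 2 higher, the median was -0.059 in place of -0.12, and RPS28 kept its call.

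Hypoxia and glycolysis genes were divided, with 6 of 32 higher and 5 lower (3 and 1 without the block, 0 and 0 without replicate 1). These shares, 18.8% higher and 15.6% lower, compare with 8.11% and 9.09% of all tested genes. NDRG1, a stress-induced gene, held 89.8, 82.4 and 80.2 CPM at the high dose, against 56.4, 53.7 and 51.1 CPM at the low dose. Its groups are separated by a wide margin, with a log2 fold change of 0.65 ± 0.066 (SE, adjusted p = 0.000145), and the hexokinase HK2 changed by 0.43 ± 0.090 (SE, adjusted p = 0.00743). Among the 5 falls were the glycolytic enzymes GAPDH at -0.38 ± 0.087 (SE, adjusted p = 0.0117), PKM at -0.36 ± 0.071 (SE, adjusted p = 0.00568) and LDHA at -0.26 ± 0.075 (SE, adjusted p = 0.0323). The bisphosphatase-kinase PFKFB4 (-0.44 ± 0.080 (SE, adjusted p = 0.00377)) and BNIP3 (-0.23 ± 0.068 (SE, adjusted p = 0.0359)) made up the rest of the falls. GAPDH, PKM and LDHA lost their calls without the block. In the FOXO list, 3 of 18 rose (TXNIP, PDK4 and CCNG2) and 4 fell (CITED2, FOXO1, BCL6 and BNIP3), with 2 and 2 without the block and 1 and 1 without replicate 1. The FOXO shares were 16.7% higher and 22.2% lower. CITED2 encodes a CBP-binding transcriptional regulator. CITED2 held 75.4, 81.3 and 80.2 CPM at the high dose, against 154, 136 and 149.9 CPM at the low dose, fully separated, with a log2 fold change of -0.89 ± 0.073 (SE, adjusted p = 2.56e-05).

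Of 28 tested DNA replication genes, 7 were called lower and 0 higher, with a median of -0.19 (3 and 0 without the block, 0 and 0 without replicate 1, median -0.18). UHRF1, which helps to copy DNA methylation at replication, held 54.2, 55.3 and 53.7 CPM at the high dose, against 68.3, 70.5 and 68.9 CPM at the low dose. It varied little within each dose and changed by -0.35 ± 0.066 (SE, adjusted p = 0.00465), while POLA1 changed by -0.33 ± 0.085 (SE, adjusted p = 0.0197). Of 26 G2/M genes 1 was called, CCNA2, which rose (0.23 ± 0.067 (SE, adjusted p = 0.0323)), and the median was 0.03, with 0 called without the block or without replicate 1. That share, 3.8%, is below the 8.11% higher among all tested genes. Of 12 replication-dependent histone genes 4 fell, H2BC5 (-1.48 ± 0.18 (SE, adjusted p = 0.000406)), H4C8 (-1.27 ± 0.29 (SE, adjusted p = 0.0115)), H2BC21 (-0.48 ± 0.13 (SE, adjusted p = 0.0269)) and H2AC6, and 0 rose (3 and 0 without the block, 0 and 0 without replicate 1). Histone genes are near-identical copies, so their read assignment is uncertain. Of 18 p53 targets AEN and ZMAT3 rose and TP53I3 fell (-0.72 ± 0.10 (SE, adjusted p = 0.00099)), shares of 11.1% and 5.6% that lie near those of all tested genes (1 and 1 without the block, 0 and 0 without replicate 1).

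Lysosome and autophagy genes were lower in 8 of 27 and higher in 2 (4 and 1 without the block, 0 and 0 without replicate 1). These shares, 29.6% lower and 7.4% higher, compare with 9.09% and 8.11% of all tested genes. The calcium channel gene MCOLN1 stood at 19.4, 17.8 and 17.1 CPM at the high dose, against 27.3, 24.1 and 24.0 CPM at the low dose. Its groups are separated, with a log2 fold change of -0.47 ± 0.075 (SE, adjusted p = 0.00185). The proton pump subunit ATP6V0D1 changed by -0.46 ± 0.073 (SE, adjusted p = 0.00182), whereas WIPI1 (0.39 ± 0.072 (SE, adjusted p = 0.00433)) and the lysosomal cholesterol transporter NPC1 (0.29 ± 0.083 (SE, adjusted p = 0.033)) rose. Of 26 ribosome biogenesis genes 6 rose, led by the helicase DDX21 (0.35 ± 0.069 (SE, adjusted p = 0.0056)), and 2 fell, NOP10 and NOP56 (2 and 0 without the block, 0 and 0 without replicate 1), whereas without replicate 3 0 rose and 1 fell. The shares of that list were 23.1% higher and 7.7% lower.

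In the metallothionein list of 7 tested genes, MT1E, MT1F and MT1X fell while MT1L (0.58 ± 0.18 (SE, adjusted p = 0.0447)) and the zinc importer SLC39A10 rose (2 and 1 without the block, 1 and 0 without replicate 1). SLC39A10 held 48.1, 64.5 and 57.1 CPM at the high dose, against 30.3, 34.8 and 42.8 CPM at the low dose, close but without overlap, and changed by 0.65 ± 0.090 (SE, adjusted p = 0.000861). Of 17 clock genes HLF, BHLHE41, CIART and NR1D1 fell and CRY1, a repressor of the clock, rose (0.35 ± 0.072 (SE, adjusted p = 0.00697)), with HLF at -0.61 ± 0.13 (SE, adjusted p = 0.00925) and BHLHE41 at -0.52 ± 0.080 (SE, adjusted p = 0.00168) (2 and 0 without the block, 0 and 0 without replicate 1). The clock shares were 23.5% lower and 5.9% higher. Of 10 steroid and vitamin D genes AKR1C1 and AKR1C3 rose and STS and SRD5A3 fell (1 and 0 without the block and without replicate 1). Glucocorticoid targets held 1 rise, DUSP1 (0.50 ± 0.078 (SE, adjusted p = 0.00174)), and 1 fall, CEBPD (-0.45 ± 0.13 (SE, adjusted p = 0.0406)), among 10 (1 and 0 without the block, 0 and 0 without replicate 1). Both shares are 10.0%, near the 8.11% higher and 9.09% lower among all tested genes. Of 9 iron genes HMOX1 rose and STEAP3 fell (-0.30 ± 0.065 (SE, adjusted p = 0.00886)), against 0 and 1 without the block and 0 and 0 without replicate 1. Of 15 calcium genes RCAN1 was the 1 call (0.35 ± 0.069 (SE, adjusted p = 0.00558)), also made without the block but not without replicate 1. The iron shares, 11.1% in each direction, and the calcium share, 6.7% higher, are also near those of all tested genes. Among 18 long noncoding RNAs KCNQ1OT1 (0.52 ± 0.089 (SE, adjusted p = 0.00294)), OIP5-AS1 and GAS5 rose and 0 fell (2 and 0 without the block, 0 and 0 without replicate 1), and of 3 short structural RNAs 0 were called in these 3 fits. The long noncoding rises are 16.7% of that list, against 8.11% higher among all tested genes.

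Among markers of other cell types, summed levels of 7 neuron markers ran from 106 to 116 CPM at the high dose, against 129 to 145 CPM at the low dose, with MAP2, TUBB3 and SNAP25 called lower, while RBFOX3, SYP and SLC17A7 stayed below 2 CPM in all 6 libraries. Those of 5 epithelial markers ran from 95.4 to 118 CPM at the high dose, against 157 to 196 CPM at the low dose, nearly all of it KRT18 and KRT8, with EPCAM and CDH1 at or near 0. Summed levels of 7 microglia and leukocyte markers overlapped, with 152 to 172 CPM at the high dose, against 169 to 190 CPM at the low dose, nearly all of it CD68 (147 to 169 CPM against 160 to 182 CPM). Within that list PTPRC was called lower, with 2.41 to 5.75 CPM at the high dose, against 7.16 to 8.92 CPM at the low dose, while CD3E and AIF1 were at or near 0. Called higher were the oligodendrocyte marker MBP, with 7.95 to 9.5 CPM at the high dose, against 5.01 to 6.54 CPM at the low dose, and the endothelial marker KDR, with 34.1 to 46.9 CPM, against 28.2 to 32.1 CPM. All libraries were made from the same astrocytoma cell line, so these genes are not read here as counts of other cell types. In bulk RNA, fewer cells expressing a gene and less of its RNA per cell cannot be told apart. The part of either in the results was not tested.

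Against vehicle, the high dose had 5202 called genes of 16719 (31.1%), the medium dose 3704 (22.2%) and the low dose 2473 (14.8%, with 8.0% higher and 6.79% lower), all with edgeR in a fit of 12 libraries without a block. These comparisons share the vehicle libraries, which carry a different library-name set from all Saengmaek-san libraries, so the extract and the library set cannot be told apart in them. For TXNIP the high dose differed from vehicle by a log2 fold change of 3.35 ± 0.091 (SE, adjusted p = 2.54e-10) and the low dose by 0.11 ± 0.091 (SE, adjusted p = 0.429). THBD differed from vehicle by 1.49 ± 0.11 (SE, adjusted p = 1.09e-05) at the high dose and by -0.036 ± 0.12 (SE, adjusted p = 0.855) at the low dose. For HTR2A the values were -1.84 ± 0.22 (SE, adjusted p = 0.000154) at the high dose and -0.47 ± 0.20 (SE, adjusted p = 0.123) at the low dose. MT1E, ANKRD1, ACTA2 and DKK1, described above, were called higher at the low dose than in vehicle and lower at the high than at the low dose, and these 2 comparisons share the low-dose libraries. The count against vehicle for the high dose was 667 without replicate 3, and those of the medium and the low dose were 1 and 1.

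Guibi-tang, a formula whose libraries carry the same library-name set, was used to ask which changes differ between 2 extracts under the same high minus low contrast (500 against 20 µg/mL for both). In a single fit of the 18 libraries, the difference between the extracts was called for 9522 of 17388 genes (54.8%), 5068 with a larger value in Saengmaek-san and 4454 with a smaller one. In that fit Saengmaek-san had 3146 called genes and Guibi-tang 11758. The length slope moved with this contrast, since it was 0.108 to 0.117 in the high-dose Guibi-tang libraries, against -0.0981 to -0.0131 in the low-dose ones. With the slope added beside the block, 7356 genes were called, 5655 of them among the 9522. Of the 24 largest rises and falls of Saengmaek-san, the difference was called for 16 and not for 8, beside 54.8% of all tested genes. These 24 were chosen by their change in Saengmaek-san, and the same libraries enter the difference, so the 16 are not independent support. Guibi-tang was called in the same direction for 17, in the opposite direction for 1 and not called for 6. Over all 17388 tested genes Guibi-tang was called for 11758.

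TXNIP was the gene of opposite direction, with a log2 fold change of 3.24 in Saengmaek-san against -0.41 ± 0.075 (SE, adjusted p = 0.000182) in Guibi-tang, a difference of 3.65 ± 0.10 (SE, adjusted p = 1.25e-11). ARRDC4 rose in both, by 1.49 in Saengmaek-san and by 1.07 in Guibi-tang, with a difference of 0.42 ± 0.14 (SE, adjusted p = 0.0236). THBD rose less in Saengmaek-san, by 1.52 against 3.37 in Guibi-tang, a difference of -1.85 ± 0.11 (SE, adjusted p = 4.73e-09). CXCL8 rose by 1.90 in Saengmaek-san and by 1.18 in Guibi-tang, and the difference was 0.72 ± 0.20 (SE, adjusted p = 0.00567). Among the falls FAM13B stood at -1.32 in Saengmaek-san against 0.14 ± 0.089 (SE, adjusted p = 0.187) in Guibi-tang, and MT1E at -1.45 against 0.21 ± 0.11 (SE, adjusted p = 0.0984), so neither was called in Guibi-tang. The falls of BMP4, ITGB8, CLIC3, MAP2 and GDAP1 did not differ between the extracts beyond the threshold, with BMP4 at -1.33 in Saengmaek-san and -1.05 in Guibi-tang.

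**Figure D5:**
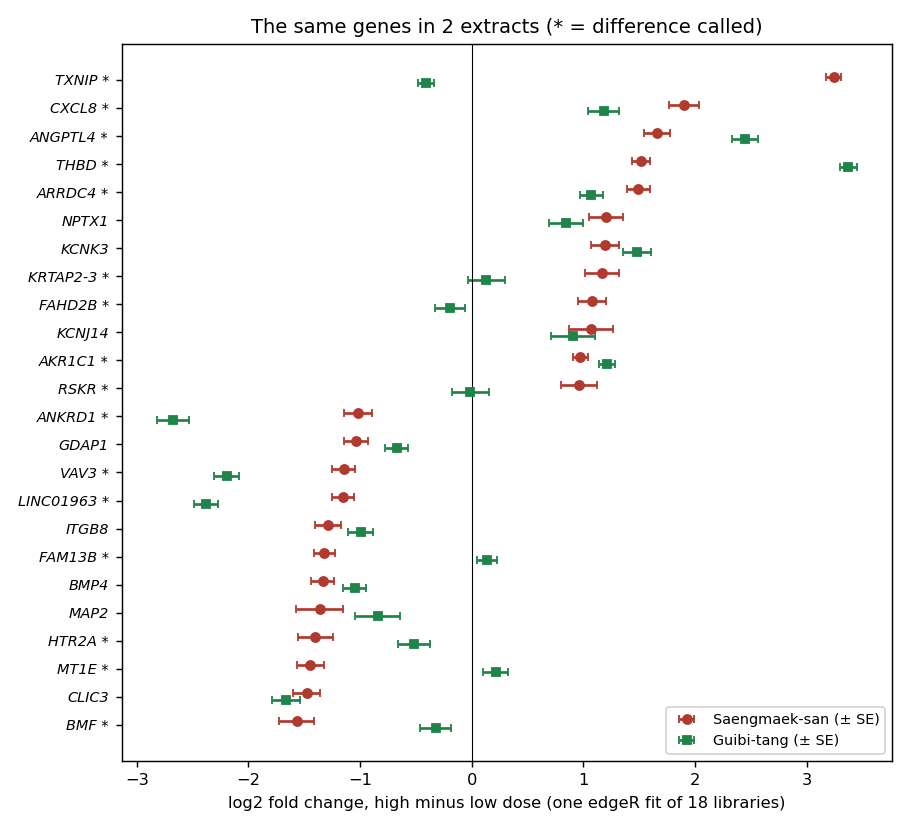
Log2 fold change ± SE of the high minus the low dose for the 24 genes in Saengmaek-san (red circles) and Guibi-tang (green squares), from 1 fit of 18 libraries. Stars mark the 16 genes whose difference was called, and TXNIP is at 3.24 in Saengmaek-san and below 0 in Guibi-tang.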

How the data were processed

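The authors deposited expected counts per gene for 60 libraries, not normalized. Per the submitters' processing notes the tools were RSEM 1.3.3, STAR 2.7.3a, FastQC 0.11.9 and Trim Galore 0.6.5 with GRCh38, and their settings, annotation and strand mode are not given in the sources used here. RNA integrity was above 7, per the labels. Without a stated strand mode, overlapping and antisense genes are uncertain. Libraries were assigned by their labels, with 0 columns left over.

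Expected counts were rounded and tested, two-sided, with edgeR 4.0.16 in R 4.3.3 (filterByExpr at a minimum count of 10 and total of 15, TMM, robust quasi-likelihood fit). High, medium and low libraries (9) shared a fit with the replicate number as a block, vehicle was added without a block (12 libraries), and Saengmaek-san and Guibi-tang shared a fit with extract by replicate as a block (18 libraries). Adjusted p is Benjamini-Hochberg over all tested genes, a gene was called under 0.05, and CPM use the TMM scaling of the 12 libraries. The test was checked on simulated data in which libraries of the same replicate number shared a shift at every dose. There 30% of 1.25-fold, 88% of 1.5-fold and 100% of 2-fold changes were called, and 5.92% of calls fell on unchanged genes. The real replicate numbers did not pair the samples in this way, so the check cannot vouch for the calls made with the block. Named were the 12 largest rises and falls (called, mean log2 CPM of at least 2, same direction in each replicate number), the 3 largest called changes and the minority direction of each of 47 lists, and the 5 called genes with the highest CPM. Where a list had at most 5 calls in a direction they are named, a choice made once their values were known. Some genes these rules pick are not reported here. The comparison and the lists were chosen with earlier results of these data known. Results were recomputed with RLE size factors, DESeq2 1.42.0, no filter, no block, other sets of libraries, the length slope as a covariate and each library or replicate left out. Replicate numbers did not pair the samples by the check used (correlations in the section on processing), and the block was kept as the stated design.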

Additional observations from a re-analysis of the deposited data

Results flagged for a closer look

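The high minus low change differed between Saengmaek-san and Guibi-tang in 9522 genes (adjusted p under 0.05, interaction contrast in edgeR). Among the 24 largest rises and falls of Saengmaek-san, 16 were in this set, given here as the Saengmaek-san minus the Guibi-tang log2 fold change. The 24 were chosen by Saengmaek-san values that also enter this contrast, and 54.8% of all tested genes were in the set. Of the rises, TXNIP was larger in Saengmaek-san by 3.65, FAHD2B by 1.28, KRTAP2-3 by 1.04, RSKR by 0.98, CXCL8 by 0.72 and ARRDC4 by 0.42. THBD (-1.85), ANGPTL4 (-0.79) and AKR1C1 (-0.24) rose less in Saengmaek-san than in Guibi-tang. Of the falls, MT1E (-1.66), FAM13B (-1.46), BMF (-1.25) and HTR2A (-0.89) had lower values in Saengmaek-san than in Guibi-tang, where MT1E and FAM13B were not called. ANKRD1 (1.66), LINC01963 (1.23) and VAV3 (1.05) fell less in Saengmaek-san than in Guibi-tang.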

How the results depend on the processing

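No named gene that was called changed direction under the alternatives run. The high against low count (2855) fell to 983 with no replicate block, 1134 with the compared groups alone and 1224 with all 60 libraries and the extract by replicate block, and rose to 4774 with the length slope and the block and 4725 with the slope and no replicate block, the last chosen after seeing the data. DESeq2 called 2218, RLE size factors 2848 and no filter 3423. Leaving out libraries gave 55 to 5183, namely 682 without high-dose replicate 1, 1569 without high-dose replicate 3 and 1011 without low-dose replicate 1. Medium against low (0) had 2 calls with DESeq2, 65 with no filter, 2 with the groups alone and 3 with the length slope and block, and 0 to 1053 on leaving out libraries. Against vehicle, all 60 libraries gave 3371 (high), 844 (medium) and 778 (low), a replicate block 6794, 6106 and 4999, the groups alone 5007 for low, and the length slope 1455 for medium. Leaving out libraries gave 667 to 6246 for high, 1 to 4987 for medium and 1 to 3451 for low. The difference from Guibi-tang (9522) ranged from 7052 to 9762, with 8128 without the block. The causes were not tested.

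Same-numbered high and low libraries correlated in their deviations from the group means at 0.76 for number 1, -0.29 for number 2 and -0.09 for number 3 over 10320 genes, so the numbers do not pair these samples by a minimum of 0.1 in every pair. Differently numbered high and low libraries ran from -0.822 to 0.757, the highest being high-dose replicate 2 with low-dose replicate 3. Of 166 named genes, 65 lost the call without the block, 139 without replicate 1 and 59 without replicate 3, and 27 kept it in all alternatives. The least stable calls were lost in 12 to 15 of 20 alternatives. They were those of TGFBR1, MT1L, SMAD9, EREG, LOX, COL5A1, NKD1, ID4, HSPA8, F2R and MT-CO2. Of 47 list medians 41 kept their sign without replicate 1, and 42 with the length slope and block. Genes with few counts are limited by depth.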
